A study of Mus musculus with 20 samples.

Results

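Complement receptors and regulators are the proteins through which a cell meets activated complement: some bind its fragments and pass a signal on, others stop it from being deposited on the cell's own surface. The 9 genes described here were chosen by name and by known role out of 54838 genes counted, with earlier results of these data known. They are Itgam, Itgb2 and Itgax, the chains of complement receptors 3 and 4, the anaphylatoxin receptors C3ar1 and C5ar1, and the membrane regulators Cr1l, Cd46, Cd55 and Cd59a. All 9 had at least 1 count in at least 1 library, and 7 passed the filter on low counts. Cd55 and Cd59a did not pass it.

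As background, C4 is cut when the classical or lectin pathway is triggered, and its larger fragment helps form the enzyme that cuts C3. Fragments of C3 left on a surface are bound by complement receptor 3, the pair of Itgam (CD11b) and Itgb2 (CD18) chains, and by complement receptor 4, the pair of Itgax (CD11c) and Itgb2 chains. In the developing brain, microglia, the resident macrophages, use complement receptor 3 to take up synaptic material. The small fragments C3a and C5a act on the G protein-coupled receptors C3ar1 and C5ar1. Cr1l (Crry), Cd46 and Cd55 limit the C3-cutting enzymes, and Cd59a blocks the terminal pore.

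The study sequenced microglial RNA from frontal cortex of mice at postnatal day 40, comparing mice that differ in C4 genotype. The labels give 5 groups: wild type (WT, 4 libraries), C4 knockout (C4-/-, 5), hC4A/- (5), hC4B/- (4) and hC4A/A (2), where hC4A and hC4B stand for the human C4A and C4B genes. The sources used here give neither the sex of the mice nor, for the 3 groups with human C4, the state of the mouse C4 gene. Each library came from 1000 cells of 1 mouse, sorted for high CD11b and low CD45, so the gate used the product of Itgam, which limits what its level can show. Nothing in the labels gives litters or preparation days, so a p-value measures the spread between these libraries. The deposited names of the WT libraries follow another pattern than those of the other 16 libraries, and in every comparison with WT the genotype and that difference in naming cannot be told apart.

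Libraries held between 855099 and 2735181 counts on genes. A satellite-like gene, Gm10800, took 9.61% to 65.9% of it. In 4 libraries 27178 to 30907 genes were detected, against 11348 to 23912 in the other 16. They are called the broad libraries below: in hC4B/- replicates 2 and 3, in C4-/- replicate 3, and in hC4A/A replicate 2. They also had counts in 55.7% to 73.5% of 1459 olfactory and vomeronasal receptor genes, which microglia are not known to use, against 6.03% to 39.5% in the others. Levels of the members are given with and without them, and correlations only over the other 16, since the broad libraries form a cluster of their own for several members. Transcripts of mouse C4, the targeted gene, did not follow the labels: C4b had 0, 0, 2 and 0 counts in WT and 104, 7, 157, 7 and 46 in C4-/-. Groups are therefore the libraries labelled with each genotype. Within C4-/-, the highest C4b counts were in replicates 3, 1 and 5, where 27178, 23912 and 18884 genes were detected. WT replicate 3, with 18586 genes detected, had 2. Whether C4b follows the number of genes detected was not tested.

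Levels are CPM (counts scaled to a common library size) adjusted by the TMM method, which corrects for differences in library make-up, and comparisons between genes use CPM per kilobase of exon. The microglial identity of the sort was checked on 12 marker genes, which were all counted in each group. Their summed level was 4407 to 9950 CPM, and it was 4407 to 7826 CPM in the broad libraries against 5791 to 9950 CPM in the others. In a sorted bulk sample, fewer cells of a type and less RNA per cell cannot be told apart.

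Over all 20 libraries the anaphylatoxin receptors held the highest mean levels per length, and Cd55 and Cd59a the lowest. C3ar1 averaged 97.4 ± 55.6 CPM per kb and C5ar1 75.5 ± 58.6 CPM per kb (SD, n = 20). Itgam followed at 41.9 ± 21.6 CPM per kb and Itgb2 at 19.3 ± 10.1 CPM per kb. Cr1l, at 4.82 ± 3.05 CPM per kb, was the regulator with the highest level. Cd46 at 1.06 ± 2.47 CPM per kb and Itgax at 0.443 ± 0.615 CPM per kb had SDs above their means. Cd59a at 0.181 ± 0.501 CPM per kb and Cd55 at 0.0582 ± 0.134 CPM per kb were at single counts. The SDs of C3ar1 and C5ar1 overlap, as do those of Itgam and Itgb2.

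**Figure D1:**
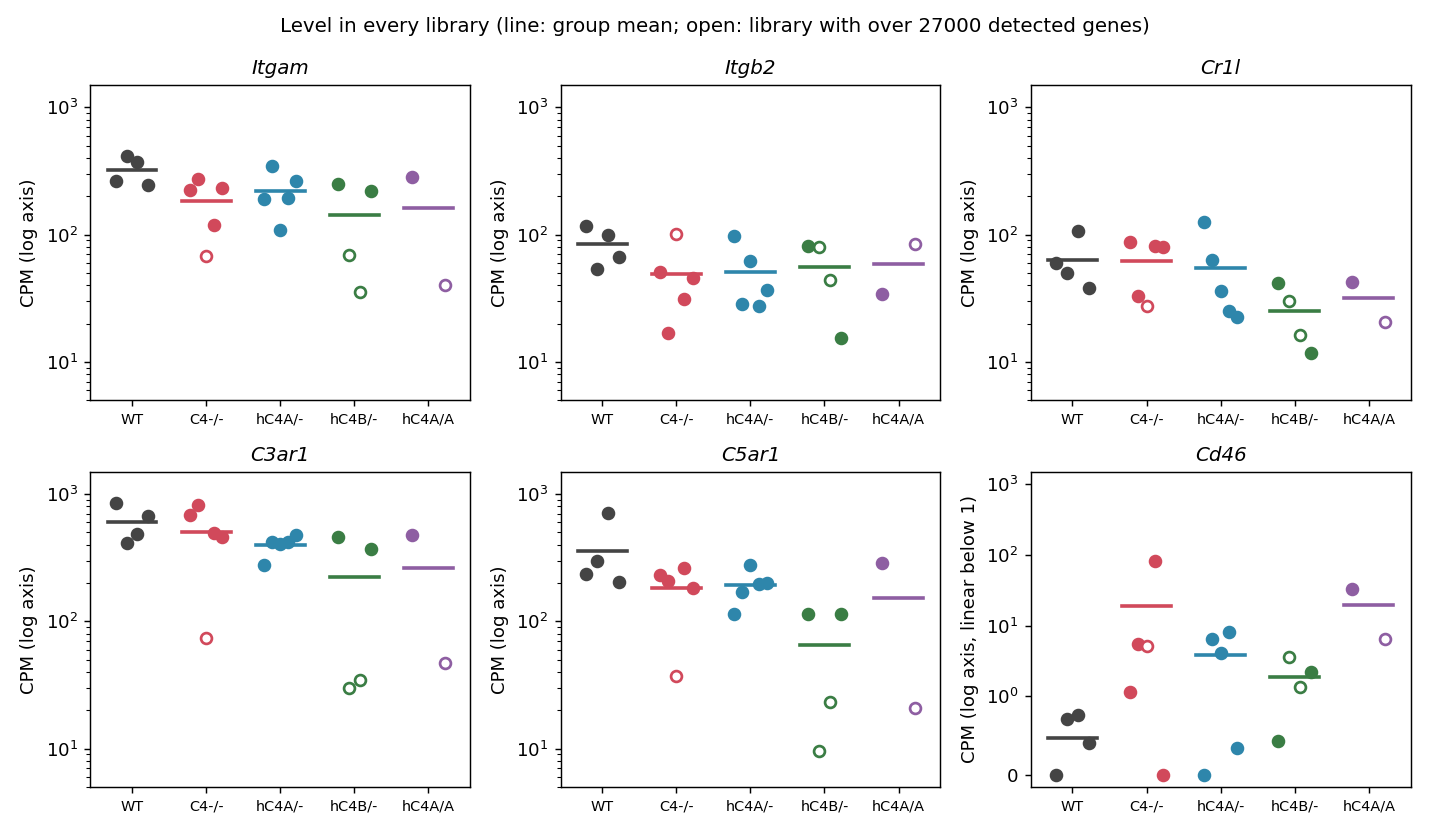
Level of members in each library (CPM, log axis) by genotype, among them the 5 counted in every library. Each point is 1 library and open points are the 4 broad libraries. The open points of Itgam, C3ar1 and C5ar1 lie below all filled points, while those of Itgb2 lie among them.

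The genes of the α chains, Itgam and Itgax, lie side by side on chromosome 7 (GRCm38), on the plus strand, with 11055 bases between them. Itgam (ENSMUSG00000030786) spans 128062640 to 128118491 and Itgax (ENSMUSG00000030789) 128129547 to 128150657. Itgb2 (ENSMUSG00000000290), the shared β chain, lies on chromosome 10, 77530252 to 77565708, on the plus strand. C3ar1 (ENSMUSG00000040552) lies on chromosome 6, 122847138 to 122856161, and C5ar1 (ENSMUSG00000049130) on chromosome 7, 16246743 to 16259540, both on the minus strand.

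RefSeq start-site windows (GRCm38.p6) were matched for 8 of the 9 members, all but Itgb2. The 250 bases before the start are shown for the neighbouring α chain genes, whose levels differ, and for both anaphylatoxin receptors, whose levels were low in the same 4 libraries as that of Itgam. Capitals mark the letters GAGGAA, found in many sites for PU.1, a macrophage transcription factor, on either strand (TTCCTC on the other). Shorter parts of these letters, such as GGAA, were neither marked nor counted. The windows are chr7:128062390-128062639 (plus strand) for Itgam, chr7:128129300-128129549 (plus strand) for Itgax, chr6:122856158-122856407 (minus strand) for C3ar1 and chr7:16259339-16259588 (minus strand) for C5ar1, each written 5′ to 3′ on the gene's strand.
Itgam: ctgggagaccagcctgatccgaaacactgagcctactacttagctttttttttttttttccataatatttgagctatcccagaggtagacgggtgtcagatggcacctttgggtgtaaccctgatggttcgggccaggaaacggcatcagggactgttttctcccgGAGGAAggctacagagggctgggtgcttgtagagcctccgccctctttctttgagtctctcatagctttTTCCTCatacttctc
Itgax: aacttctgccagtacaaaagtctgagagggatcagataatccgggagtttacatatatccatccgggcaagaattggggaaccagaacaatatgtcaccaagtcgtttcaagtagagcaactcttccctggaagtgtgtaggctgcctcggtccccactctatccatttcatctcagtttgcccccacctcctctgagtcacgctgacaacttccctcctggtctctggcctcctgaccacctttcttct
C3ar1: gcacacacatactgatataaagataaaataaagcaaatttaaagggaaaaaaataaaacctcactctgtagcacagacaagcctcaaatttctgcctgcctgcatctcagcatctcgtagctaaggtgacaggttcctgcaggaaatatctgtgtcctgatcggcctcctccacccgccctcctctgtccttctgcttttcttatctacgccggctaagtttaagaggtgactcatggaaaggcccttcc
C5ar1: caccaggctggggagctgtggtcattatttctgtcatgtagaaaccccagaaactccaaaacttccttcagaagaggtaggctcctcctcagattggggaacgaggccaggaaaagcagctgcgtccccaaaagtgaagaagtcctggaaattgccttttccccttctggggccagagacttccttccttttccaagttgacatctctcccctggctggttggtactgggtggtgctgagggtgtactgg

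The full GAGGAA occurred 2 times in the Itgam window, beginning 84 and 15 bases before the start, and not in the windows of Itgax, C3ar1 or C5ar1. Among the 8 matched members it also occurred in Cd59a, so 2 of 8 held it. Of 32851 windows of the same length, 23.3% held it. TATAAA on either strand, the letters of the TATA box, occurred in C3ar1 alone of the 8 and in 12.4% of all windows. A match is a description of letters, not of a bound site.

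Itgam, the α chain of complement receptor 3, was counted in all 20 libraries. The WT libraries had 265, 412, 375 and 244 CPM and the C4-/- libraries 226, 271, 68.2, 119 and 231 CPM. In hC4A/- the values were 190, 344, 109, 193 and 264 CPM, in hC4B/- 248, 68.7, 35.4 and 221 CPM, and in hC4A/A 285 and 40.2 CPM. The lowest 4 values are those of the broad libraries, at 35.4 to 68.7 CPM, against 109 to 412 CPM in the other 16. WT had the highest mean, 324 ± 82 CPM (SD, n = 4), followed by hC4A/- at 220 ± 88.4 (n = 5), C4-/- at 183 ± 85.4 (n = 5), hC4A/A at 163 ± 173 (n = 2) and hC4B/- at 143 ± 107 CPM (n = 4). Each neighbouring pair in this order overlaps in range.

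Itgb2, the β chain that both receptors need, did not share that split. WT had 118, 53.4, 99.7 and 66.6 CPM, C4-/- 50.6, 16.8, 102, 31.2 and 45.9 CPM, and hC4A/- 97.3, 28.5, 62.5, 27.5 and 36.4 CPM. The hC4B/- libraries had 82, 79.6, 44.2 and 15.3 CPM and the hC4A/A libraries 34.2 and 84.2 CPM. The broad libraries, at 44.2 to 102 CPM, lie within the 15.3 to 118 CPM of the others. Group means were 84.4 ± 29.6 CPM in WT and 49.2 ± 32.1 to 59.2 ± 35.4 CPM in the other 4 groups, with overlap between all neighbours.

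The ratio of the α chain to the β chain of complement receptor 3 put the broad libraries apart. Itgam over Itgb2, per length, was 0.290 to 0.525 in the 4 broad libraries (median 0.447), none above 1. In the other 16 it was 1.06 to 9.82 (median 2.88), all above 1. Within those 16, the levels of the chains had no relation past a threshold of 0.05: Pearson's r of log2 CPM was 0.07 (permutation p = 0.798) and Spearman's rho 0.106 (permutation p = 0.696), and without the 2 libraries farthest from the Itgam median r was 0.10. This was 1 of 3 relations computed, and the Benjamini-Hochberg adjusted p of r was 0.798.

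**Figure D2:**
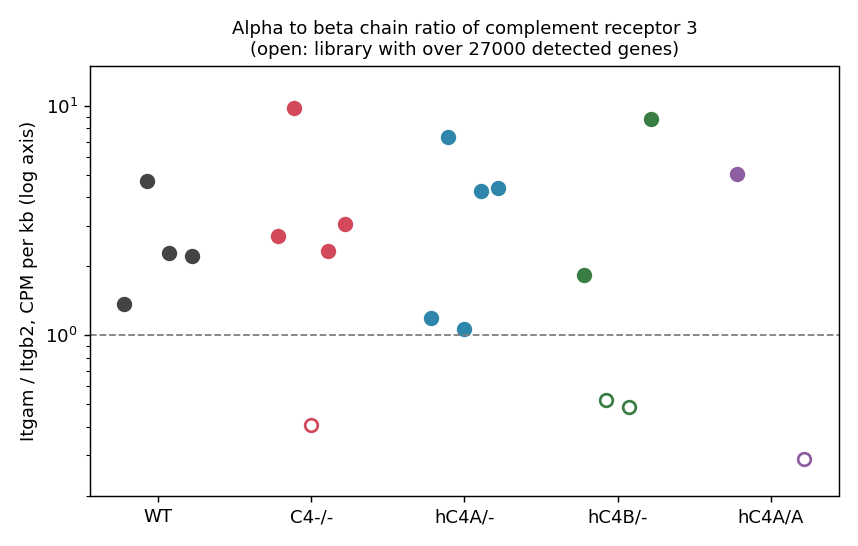
Ratio of Itgam to Itgb2 (CPM per kb, log axis) by genotype; each point is 1 library, open points are the 4 broad libraries and the dashed line marks equal levels. The open points lie at 0.290 to 0.525 and all filled points above 1.

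Itgax, the α chain of complement receptor 4 and a marker of dendritic cells and of reactive microglia, was at a few counts per library. The counts were 0, 0, 1 and 0 in WT, 6, 1, 8, 0 and 4 in C4-/-, and 0, 1, 3, 0 and 5 in hC4A/-. They were 0, 8, 10 and 0 in hC4B/- and 3 and 6 in hC4A/A. Each broad library had 6 or more counts, and no other library had more than 6. In CPM the broad libraries had 5.24 to 9.65 and the others 0 to 3.45. In hC4B/- all 18 counts were in the 2 broad libraries. Itgal (CD11a), an α chain that pairs with Itgb2 mainly on lymphocytes, was split likewise, with 3.62 to 12.3 CPM in the broad libraries and 0 to 2.88 CPM in the others.

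C3ar1, the receptor for C3a, had 858, 412, 488 and 673 CPM in WT and 683, 820, 74.1, 495 and 459 CPM in C4-/-. It had 280, 419, 404, 420 and 478 CPM in hC4A/-, 462, 30.2, 34.7 and 371 CPM in hC4B/-, and 476 and 46.6 CPM in hC4A/A. The broad libraries had 30.2 to 74.1 CPM and the others 280 to 858 CPM, without overlap. Group means ran from 608 ± 200 CPM in WT over 506 ± 282 in C4-/-, 400 ± 73.2 in hC4A/- and 261 ± 304 in hC4A/A to 224 ± 225 CPM in hC4B/-. Neighbours in this order overlap. The small SD of hC4A/- belongs to the only group besides WT without a broad library.

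C5ar1, the receptor for the neutrophil and microglial attractant C5a, had 235, 298, 705 and 202 CPM in WT and 230, 206, 37.4, 261 and 183 CPM in C4-/-. In hC4A/- it had 114, 171, 276, 195 and 201 CPM, in hC4B/- 114, 9.65, 23.1 and 114 CPM, and in hC4A/A 285 and 20.7 CPM. All 4 hC4B/- libraries lie below all 4 WT libraries, which 2.26% of the 12680 genes tested do in that direction. This and the hC4A/A values of Itgax and Cd46 against WT, below, are the only non-overlaps of tested members in the 8 pairwise comparisons. The means were 360 ± 233 CPM in WT, 192 ± 58.5 in hC4A/-, 184 ± 86.7 in C4-/-, 153 ± 187 in hC4A/A and 65.3 ± 56.8 CPM in hC4B/-, and neighbours overlap. C5ar2, a second C5a receptor gene with 2588 bases between it and C5ar1, no member here, had 353 to 1155 CPM in WT and 405, 28.9, 62.6 and 242 CPM in hC4B/-.

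The ratio of the 2 anaphylatoxin receptors spread less than that of the integrin chains. C3ar1 over C5ar1, per length, had a median of 1.44 and a range of 0.413 to 2.41. Over the 16 libraries that are not broad, r of log2 CPM was 0.28 (permutation p = 0.296, adjusted 0.798) and rho 0.394 (permutation p = 0.131, adjusted 0.393), and r was 0.36 without the 2 libraries farthest from the C3ar1 median. Neither of these passed a threshold of 0.05. Over all 20 libraries no pooled value is given, as both receptors are low in the 4 broad libraries and high in the rest. The third relation, Itgax with Itgb2, had r = -0.07 (permutation p = 0.789).

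**Figure D3:**
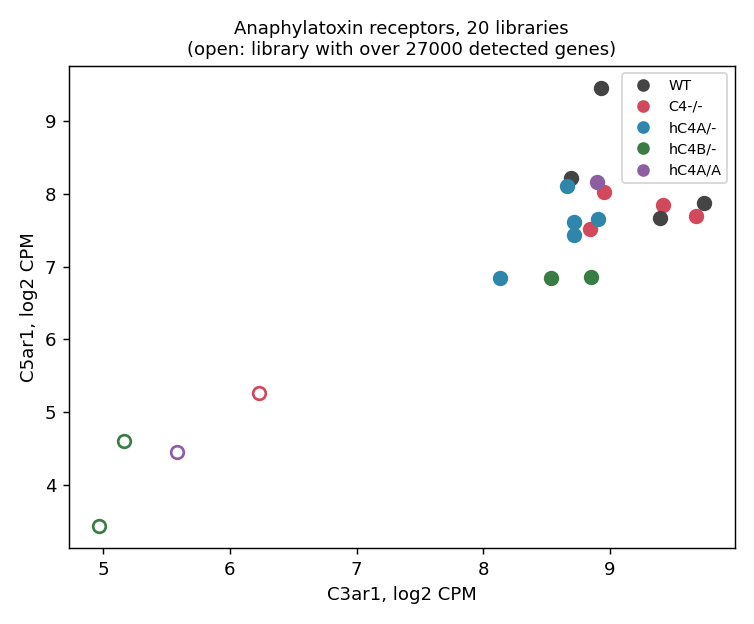
Level of C5ar1 against that of C3ar1, on a log scale of CPM. Each point is 1 library, coloured by genotype, and open points are the 4 broad libraries. The open points have 30.2 to 74.1 CPM of C3ar1 and 9.65 to 37.4 CPM of C5ar1, below all filled points on both axes.

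The regulator genes Cr1l and Cd46 are neighbours on chromosome 1, both on the minus strand, with 5132 bases between them. Cr1l (ENSMUSG00000016481) spans 195097382 to 195131586 and Cd46 (ENSMUSG00000016493) 195036826 to 195092249. Cd55 (ENSMUSG00000026399) lies on the same chromosome at 130439027 to 130462744, on the minus strand, and Cd59a (ENSMUSG00000032679) on chromosome 2 at 104095801 to 104115354, on the plus strand.

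Cr1l, the main membrane regulator of C3 activation in rodents, was counted in all 20 libraries. It had 59.4, 49.8, 106 and 37.8 CPM in WT, 88, 32.6, 27.5, 81.6 and 79.9 CPM in C4-/-, and 126, 63.4, 35.7, 25.2 and 22.5 CPM in hC4A/-. In hC4B/- it had 41.4, 30.2, 16.3 and 11.7 CPM, and in hC4A/A 42.6 and 20.7 CPM. The 16.3 to 30.2 CPM of the broad libraries lie within the 11.7 to 126 CPM of the others. Means were 63.2 ± 29.7 CPM in WT, 61.9 ± 29.3 in C4-/-, 54.5 ± 42.9 in hC4A/-, 31.6 ± 15.4 in hC4A/A and 24.9 ± 13.5 CPM in hC4B/-, all neighbours overlapping.

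Cd46, which in mice is known mainly from the sperm acrosome, was dominated by 2 libraries. Its counts were 0, 1, 1 and 1 in WT, 2, 6, 8, 152 and 0 in C4-/-, and 0, 12, 6, 14 and 1 in hC4A/-. They were 1, 3, 2 and 3 in hC4B/- and 103 and 5 in hC4A/A. C4-/- replicate 4 and hC4A/A replicate 1 thus hold 255 of its 321 counts, and neither is a broad library. In C4-/- replicate 4 the neighbour Cr1l also had 152 counts. Reads of 5 annotated genes that overlap Cd46 cannot be told from its own where exons coincide, as strand was not used. One of them, Gm37366, had 80 counts in hC4A/A replicate 1, but 0 in C4-/- replicate 4, and 22 in WT replicate 1, where Cd46 had 0. Another, Gm37132, had 9 in C4-/- replicate 4 and 11, its highest, in hC4A/- replicate 2, where Cd46 had 12. Whether these are reads of Cd46 was not tested.

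Cd55, which speeds the decay of C3-cutting enzymes, had 6 counts in all: 1 in C4-/- replicate 1, 2 each in hC4B/- replicates 2 and 3, and 1 in hC4A/A replicate 2. Cd59a, the inhibitor of the terminal pore, had 7 counts in all: 1 and 2 in C4-/- replicates 3 and 5, 1 in hC4B/- replicate 3 and 3 in hC4A/A replicate 2. Neither was counted in WT or hC4A/-. There, 3 counts over the group, about the upper 95% counting limit for a count of 0, would be 0.367 and 0.319 CPM. The mouse copies Cd55b and Cd59b, which can share reads with them, had 2 counts each over the 20 libraries. These limits cover counting error only, since amplified reads without molecular identifiers are not independent molecules.

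**Figure D4:**
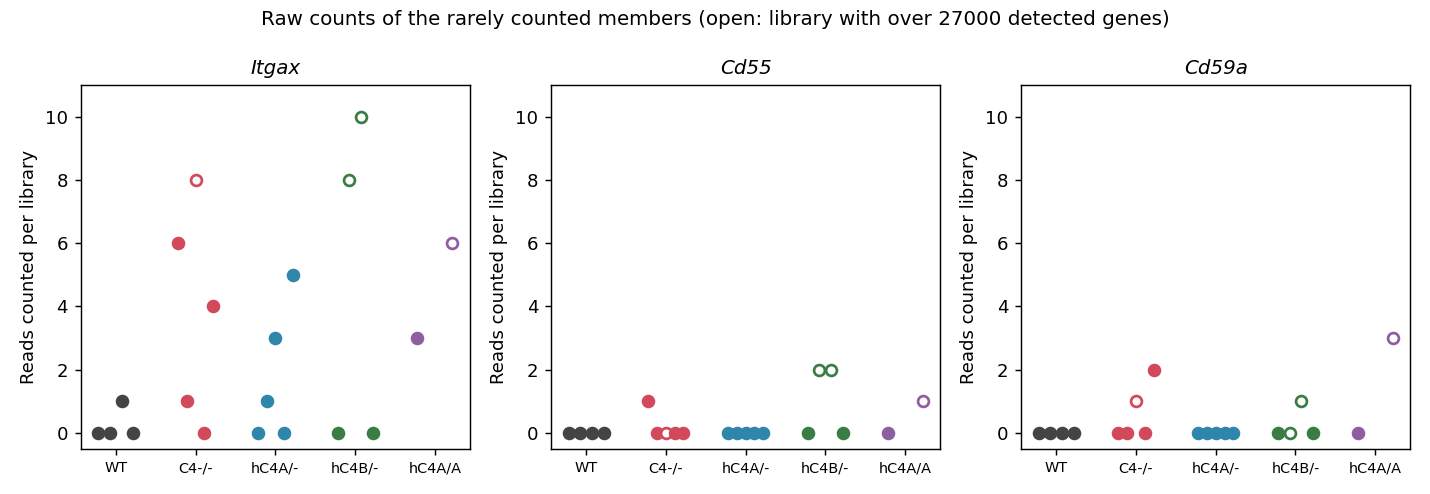
Counts of members at low counts, Itgax, Cd55 and Cd59a among them, in each of the 20 libraries, by genotype. Open points are the 4 broad libraries. The counts of Itgax are highest in open points.

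Against WT, no member differed in any of the 4 other groups at an adjusted p under 0.05 by edgeR's quasi-likelihood test with Benjamini-Hochberg adjustment over 12680 genes, and 0% of all genes did in each of these comparisons. By DESeq2, limma-voom and edgeR with other scaling, no member passed in these comparisons either. Itgax and Cd46 passed the filter on 2 and 6 libraries respectively, none of them WT, so for these the filter itself favours a difference from WT.

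For C4-/- against WT, 1 of 7 tested members, Cd46, had an unadjusted p under 0.05, as 8.55% of all genes did. Its means were 18.7 ± 35.3 CPM (SD, n = 5) and 0.471 ± 0.352 CPM (n = 4), a log2 fold change of 5.26 ± 1.59 (SE) with an adjusted p of 0.529 by edgeR. The 168 counts in C4-/- against 3 in WT give a ratio of 59.4, with a 95% counting interval of 20.0 to 291. Of the 168, 152 came from C4-/- replicate 4. Such intervals, here and below, treat pooled reads as independent and leave out the spread between mice. Without C4-/- replicate 4 the log2 fold change was 2.60. For hC4A/- against WT, 0 of 7 had such a p, as against 7.51% of all genes.

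For hC4B/- against WT, 2 of 7 members had an unadjusted p under 0.05, as against 13.1% of all genes. C5ar1 had a log2 fold change of -2.45 ± 0.84 (SE) and an adjusted p of 0.339 by edgeR, with 0.0950 by DESeq2. Leaving out the 4 broad libraries gave -1.41 with an adjusted p of 0.655. Itgax, with 18 counts against 1, had a ratio of 24.5 with a 95% counting interval of 3.86 to 1019, and an adjusted p of 0.365 by edgeR. All of those 18 counts come from broad libraries, and without these Itgax did not pass the filter.

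For hC4A/A against WT, 2 of 7 members had an unadjusted p under 0.05, as against 8.41% of all genes. Cd46 and Itgax were higher in both hC4A/A libraries than in all 4 WT libraries, which 7.41% of genes were. Cd46 had a log2 fold change of 5.35 ± 1.72 (adjusted p = 0.558 by edgeR) and a ratio of counts of 75.9 (25.3 to 374). Without hC4A/A replicate 1 the log2 fold change was 3.79. Itgax had 4.24 ± 2.02 (adjusted p = 0.589 by edgeR) and a ratio of 19 (2.63 to 832) from 9 counts against 1. Without hC4A/A replicate 2, a broad library, its log2 fold change was 2.24.

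Among the genotypes other than WT, edgeR called no gene in any of the 4 comparisons, which is 0% of genes in each. For hC4B/- against C4-/-, 1 of 7 members had an unadjusted p under 0.05, as against 4.52% of genes. This was Cd46, with 9 counts against 168 and a ratio of 0.0687 (0.0309 to 0.134). Its log2 fold change of -3.34 ± 1.43 (adjusted p = 0.990 by edgeR) was -0.68 without C4-/- replicate 4. In hC4A/- against C4-/- (10.7% of genes), hC4A/- against hC4B/- (16.7%) and hC4A/A against hC4A/- (11.5%), 0 of 7 members did. The comparisons share groups, so their values are not independent. In the test for any difference among the 5 genotypes, 15 genes passed, 0.118% of those tested, and 0 of 7 members were among them. Cd46 came nearest (unadjusted p = 0.00664, adjusted p = 0.335 by edgeR), the only 1 of 7 members with an unadjusted p under 0.05, as against 12% of genes, followed by C5ar1 (adjusted p = 0.479 by edgeR).

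Genes most like a member in their pattern over the 16 libraries that are not broad were taken by Spearman's rho of CPM over genes tested. For Itgam they were Adpgk (0.856), Tbc1d9b (0.782) and Rrbp1 (0.774), and for Itgb2 Zfp661 (0.865), Smpdl3a (0.812) and Dcakd (0.787). For C3ar1 they were Cdh23 (0.847), Kdm4b (0.809) and Trp53 (0.803). These are the highest values over all genes tested, over libraries that share depth differences, and have no p.

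Of the other complement genes, from a list of 46, 16 were tested. None passed in any of the 8 pairwise comparisons by edgeR, and 1, C4b, passed in the test for any difference (adjusted p = 0.0320 by edgeR). At an unadjusted p under 0.05, C4b was higher and C1qbp lower in C4-/- against WT. C4b alone was higher in hC4A/- and in hC4B/-, and C4b and Csmd1 were higher in hC4A/A. These are 2, 1, 1 and 2 of the 16 tested, where 8.55%, 7.51%, 13.1% and 8.41% of all genes had such a p. In hC4A/- against hC4B/-, 4 of the 16 were lower (C4a, C4b, Csmd1 and Csmd2), where 16.7% of all genes had such a p. In hC4A/A against hC4A/- the same 4 genes were higher, where 11.5% did. C4a, Csmd1 and Csmd2 passed the filter on low counts without any WT or hC4A/- library, and C4b passed it without WT. For these genes the filter itself favours a difference from those groups, also in the test for any difference. Most counts of 3 of these genes were in broad libraries. C4b had 9, 230, 428 and 4 counts in hC4B/- and 21 and 271 in hC4A/A. Csmd1 had 0, 8, 25 and 0 counts in hC4B/- and 0 and 18 in hC4A/A. Csmd2 had 1, 15, 20 and 0 counts in hC4B/- and 1 and 14 in hC4A/A, so in each case the broad libraries were the high ones. High means in the list were those of the C1q chains C1qb (1014 CPM), C1qc (763 CPM) and C1qa (734 CPM), which start the classical pathway, and that of C5ar2 (435 CPM). C3, the source of the ligands of most members, had 36 counts in 11 libraries, with at most 11 in 1 library. Of 12 genes that act with β2 integrins, 10 were tested, and of 11 that act in anaphylatoxin receptor signalling, 11 were. None of either passed by edgeR in a pairwise comparison. Of the 11 signalling genes, 0 to 4 had an unadjusted p under 0.05 in a pairwise comparison, with 4 in hC4A/- against C4-/-, 1 higher and 3 lower, where 10.7% of all genes did. Itgal, with 0 counts in WT, had an unadjusted p under 0.05 in C4-/-, hC4B/- and hC4A/A against WT. Of all genes, 8.55%, 13.1% and 8.41% had such a p. Of its 44 counts, 36 were in broad libraries, and it passed the filter without WT, so the filter itself favours a difference. Among the other β2 integrin genes, Apbb1ip was higher in C4-/- and Fermt3 lower in hC4A/A against WT at such a p.

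Markers of other myeloid cells that can carry members were counted in all groups. Summed neutrophil markers had 161 to 1460 CPM in WT, highest in WT replicate 2, and 18.4 to 273 CPM in the other 16 libraries. Of the 9 neutrophil markers tested, 7 had a lower value at an unadjusted p under 0.05 in C4-/- and in hC4A/- against WT. Of all genes, 8.55% and 7.51% had such a p. In hC4B/- 3 markers did (13.1% of all genes) and in hC4A/A 0 (8.41%), and by edgeR none passed after adjustment in these comparisons. For any marker that passed the filter only on WT libraries, the filter itself favours a difference from WT. Border macrophage markers had 408 to 1795 CPM in WT, 457 to 1412 in C4-/- and 376 to 878 CPM in hC4A/-. In hC4B/- they had 341 to 550 and in hC4A/A 485 to 762 CPM. Only 2 of these 8 markers passed the filter on low counts. Clec10a had no counts in WT, and Lyve1 and Pf4 none in C4-/-. Cd163, Ms4a7, Pf4 and Clec10a had none in hC4A/-, so the sums do not rest on all 8 markers. These sums were highest in WT replicate 3, where C5ar1 and the summed microglial markers are also highest. Within C4-/- they were highest in replicate 1, where C5ar1 had 230 CPM, within the range of the other C4-/- libraries. Monocyte markers had 0 to 66.1 CPM over all libraries, and dendritic cell markers without Siglech had 8.53 to 94.0 CPM over all libraries. Their part in the levels of C5ar1 and Itgax was not tested.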

How the data were processed

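RNA from sorted microglia of 20 mice was counted per gene. The deposited count files hold raw counts in the layout of STAR. The tools and build were STAR, edgeR and GRCm38, per the submitters' processing notes, which give no versions. The column that ignores strand was used. Summary lines (unmapped 14.8% to 42.1%, multimapping 13.2% to 28.9%, without a feature 21.8% to 42.1%, ambiguous 0.897% to 5.86% of reads) were left out of all totals and tests. GENCODE vM21 annotation of GRCm38 gave symbols, for 54809 of 54838 genes, and exon lengths.

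Genes were filtered with filterByExpr by genotype (12680 kept) and scaled by TMM. All libraries entered 1 edgeR quasi-likelihood fit (edgeR 4.0.16, R 4.3.3, robust, 15 residual degrees of freedom, no covariates), with Benjamini-Hochberg adjustment over all genes and a threshold of 0.05. The method was tested on simulated data. Group values are mean CPM ± SD over libraries. Ratios of counts pooled over libraries carry exact 95% intervals, which leave out the spread between libraries. Correlations used log2 CPM with a prior count of 2 and 100000 permutations. Fold changes are printed for members with an unadjusted p under 0.05, and the rest are given by levels. Named beside them are C4b, the 5 list genes of highest mean (1 is not reported here), list genes with an unadjusted p under 0.01 and the 3 genes most alike in pattern to Itgam, Itgb2 and C3ar1. Other list genes, and overlapping or neighbouring genes, were named after their values were seen. Alternatives were RLE scaling, DESeq2 1.42.0, limma-voom 3.58.1, no filter, a replicate block, leaving out libraries, and leaving out Gm10800. The members and lists were chosen with earlier results of these data known. The deposited series matrix repeats the counts and was not used here.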

Additional observations from a re-analysis of the deposited data

Results flagged for a closer look

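Of 36 groups of 4 or 5 libraries checked, over all 9 members, 5 held a library far from the others by Dixon's criterion. The criterion was applied to log2 CPM, while the values below are CPM. For values with a normal spread chance flags about 1 in 20, a rate that does not hold for members near 0 counts. On the log2 scale Cd46 in C4-/- replicate 4, at 81.6 CPM from 152 counts, was not flagged. C3ar1 in C4-/- replicate 3, a broad library, had 74.1 CPM, and the nearest library of its group had 459 CPM. C5ar1 in the same library had 37.4 CPM, with the nearest at 183 CPM. Itgax in WT replicate 3 had 0.767 CPM from 1 count, and the other WT libraries had 0. Cd55 in C4-/- replicate 1 had 0.575 CPM from 1 count, and Cd59a in hC4B/- replicate 3 had 0.681 CPM from 1 count, with the other libraries of each group at 0. For Itgax, Cd55 and Cd59a here, any count in 1 library with the rest at 0 is flagged by construction.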

How the results depend on the processing

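No named member fit crossed the threshold or changed sign under any alternative run, with 1 exception: without a filter on low counts, Cd46 passed the test for any difference (1 member, adjusted p = 0.00719 by edgeR). Itgax could not be fitted without the broad libraries. Genes called, 0 by the chosen fit in each pairwise comparison, were with DESeq2 and with no filter respectively 20 and 26 for C4-/- against WT, 21 and 65 for hC4A/- against WT, 53 and 28 for hC4B/- against WT, 2 and 3 for hC4A/A against WT, 10 and 53 for hC4A/- against C4-/-, 3 and 16 for hC4B/- against C4-/-, and 58 and 36 for hC4A/- against hC4B/-. For hC4A/A against hC4A/- DESeq2 called 1 and limma-voom 6. Limma-voom called 1 in hC4A/- against WT and 1 in hC4A/- against C4-/-, and leaving out the 4 broad libraries gave 1 in hC4A/- against WT. Leaving out 1 library at a time gave 0 to 2 for hC4B/- against WT, 0 to 1 for hC4A/A against WT and 0 to 8 for hC4A/- against hC4B/-. The 15 genes of the test for any difference became 24 with RLE scaling, 65 with DESeq2, 0 with limma-voom, 697 with no filter, 2 without the broad libraries and 0 to 34 on leaving out 1 library. RLE scaling shifted the all-gene median log2 fold change in hC4A/A against WT from 0.18 to 0.48. Without WT, r of Itgam with Itgb2 was -0.26 and of Itgax with Itgb2 0.13. Leaving out 1 library moved the log2 fold change of C5ar1 in hC4B/- against WT between -2.85 and -1.86.

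The labels do not say whether replicate numbers pair libraries. Same-numbered libraries of different genotypes had a median correlation of deviations of 0.00833 (-0.301 to 0.697, 33 pairs, 5 over 0.1). Different-numbered libraries had a median of -0.00143 (-0.710 to 0.710, 124 pairs, 12 over 0.1), and 6 of 20 libraries correlated best with their own number. As these ranges overlap, the correlations cannot decide whether the numbers pair libraries. With a replicate block, 0 genes passed the test for any difference and C5ar1 in hC4B/- against WT had -2.83. The low counts of Cd55, Cd59a and Itgax limit what could be detected, and 2 libraries in hC4A/A limit every comparison with it. The spread between libraries limits all comparisons: beyond counting error, the common SD relative to the mean (biological coefficient of variation) was 1.03 in the edgeR fit.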
